A study of Homo sapiens with 8 samples.

Results

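Axon guidance ligand and receptor genes are described here: 62 of the 20037 RefSeq protein-coding genes placed on the chromosomes of GRCh38.p14, the assembly that hg38 stands for. They were taken by symbol as the semaphorins of classes 3 to 7 (20 genes), the plexins (9), the Eph receptors (14), the ephrins (8), the netrins (4), the Slits (3) and the Robos (4). The chromatin data come from HepG2, a human hepatoblastoma line widely used as a model of liver cells. The cells carried an siRNA against ANP32B (siANP32B), a histone chaperone, or a non-targeting siRNA (siControl), and were taken 3 days after transfection. The histone variant macroH2A1 was mapped by CUT&RUN, which cuts out and sequences the DNA beside an antibody-bound protein, with 2 libraries per siRNA. The comparison asks what loss of ANP32B does to the placement of macroH2A1. Neither file type measures how far ANP32B was depleted. The files hold a list of broad macroH2A1 domains for each of these 4 libraries and the authors' table of regions compared between siANP32B and siControl.

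Axon guidance ligands are secreted or membrane-bound cues read by receptors on growing nerve fibres, and the same proteins also act in blood vessels, epithelia and cancer cells. Semaphorins signal through plexins, ephrins through Eph receptor tyrosine kinases, Slits through Robos, and netrins mainly through the receptors DCC, neogenin and the UNC5 family. macroH2A1 replaces H2A in some nucleosomes, carries a globular macrodomain on its tail, and tends to fill long stretches of chromatin with little transcription.

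The siANP32B lists held 7530 and 7404 domains and the siControl lists 8623 and 8116, and the depth of the libraries is unknown. The fewer siANP32B domains covered more sequence, 563.8 and 558.6 Mb against 519.3 and 467.4 Mb in the siControl lists. Their median lengths were 47 and 48 kb, against 38 and 39 kb. No value per library is given for the tested regions. Coverage below is the percent of the 1 kb bins of a gene body that lie in a domain, and a gene is called covered at 50% or more. With 2 libraries per group an exact permutation test (two-sided) of a single gene cannot give a p below 0.333, so coverage values are descriptions. Nothing in the labels says that replicates were separate cultures, so their spread may be technical. Of 7 hepatocyte marker genes, 3 were covered in both siANP32B and 4 in both siControl libraries (42.9% and 57.1%, against 17.3% and 13.8% of all protein-coding genes). At 2 of the 7, coverage was below both siControl libraries in both siANP32B libraries (28.6%, against 2.88%). Of 5 neuron marker genes 1 (20%) was covered in both libraries of either group. Coverage is not RNA, so the labelled cell type could not be checked.

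Guidance genes lay in macroH2A1 domains selectively, with some near 100% and others at 0 in all 4 libraries. Of the 62 genes, 14 were covered in both siANP32B libraries and 10 in both siControl libraries, or 22.6% and 16.1%. Over all protein-coding genes the shares were 17.3% and 13.8%, so the guidance genes stood near the background. The order of the groups depends on the domains kept: when only domains above a common score, the median over the 4 lists, were used, 2 genes were covered in both siANP32B and 6 in both siControl libraries. With an equal number of best-scored domains per library (7404), the counts were 14 and 9. No domain touched 19 of the 62 genes in any library (30.6%, against 46.9% of all protein-coding genes). Guidance genes are longer than most, with a median of 48.6 kb against 24.1 kb, and fewer long genes are without a domain. Within length classes the share without one was 32.3% of guidance genes against 50.1% of all genes under 50 kb, 23.1% against 41.3% at 50 to 200 kb, and 33.3% against 35.0% over 200 kb. All 10 genes covered in both siControl libraries were also covered in both siANP32B libraries.

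**Figure D1:**
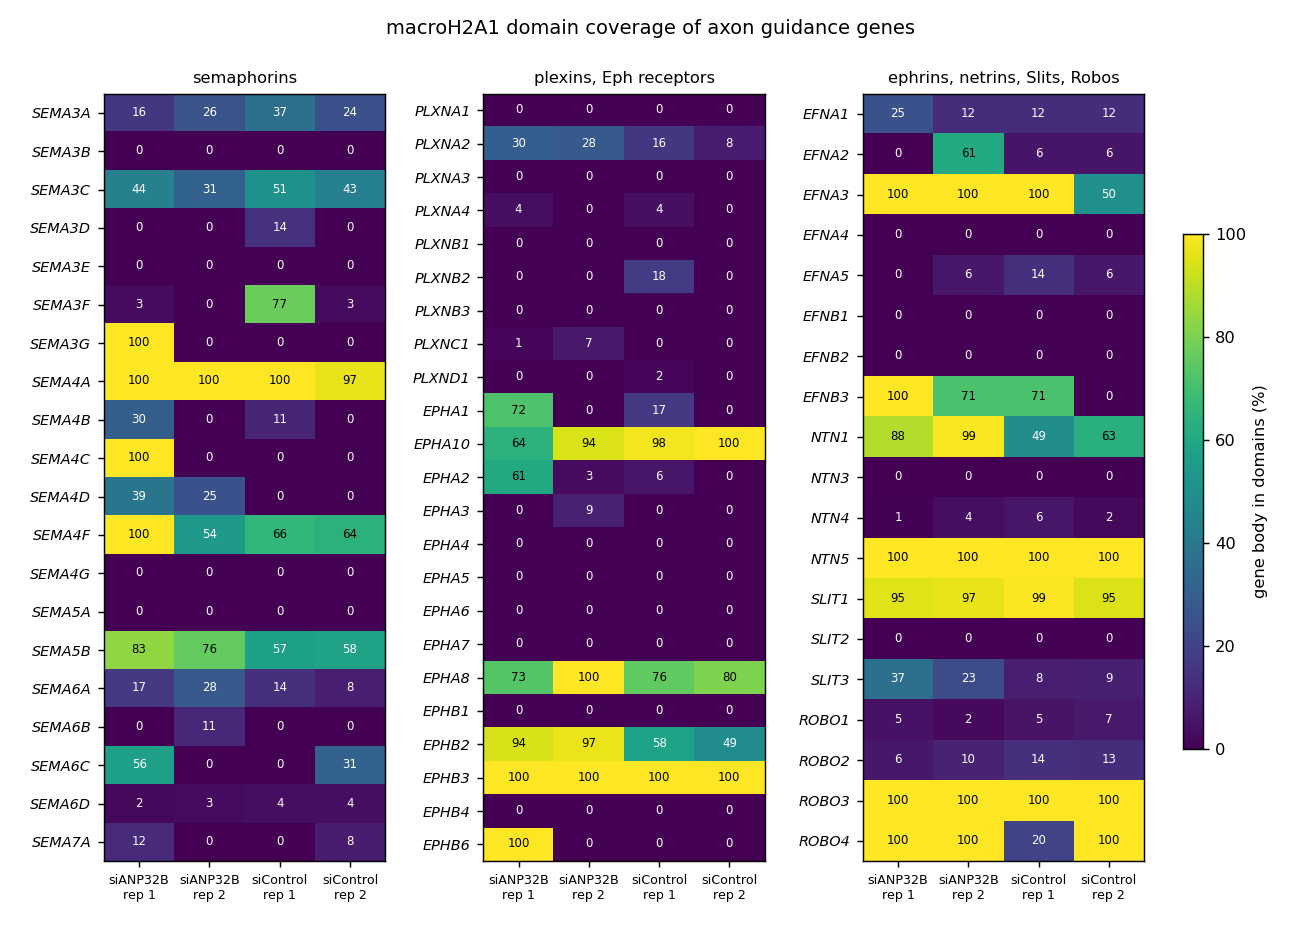
Percent of each gene body in macroH2A1 domains (colour and printed value, rounded) for the 62 guidance genes, one column per library with siANP32B on the left. EPHB3, NTN5 and ROBO3 are at 100% in all 4 columns, SLIT2 and SEMA5A are at 0 throughout, and EPHB2 and NTN1 are brighter in the siANP32B columns.

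Among the ligands, SLIT1, NTN5, EFNA3, SEMA4A, SEMA4F and SEMA5B were covered in all 4 libraries. SLIT1 encodes a secreted repellent and spans 187.9 kb of chromosome 10 (96998038 to 97185959). Its gene body was in domains by 95.2% and 96.8% in siANP32B and by 99.5% and 94.7% in siControl libraries. A single domain of 209 and 212 kb in siANP32B and of 217 and 204 kb in siControl libraries held nearly the whole gene, and 178 of its 188 bins were in domains of all 4. Its paralogs differed: SLIT2 had no domain in any library, and SLIT3 was covered only in part.

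NTN5, a short netrin family gene on chromosome 19, was at 100% in each library. SEMA4A, a transmembrane semaphorin gene, was at 100% in both siANP32B libraries and at 100% and 96.8% in the siControl libraries. SEMA4F, another gene of that class, was at 100% and 53.6% in siANP32B and at 66.1% and 64.3% in siControl libraries. The groups overlapped at each of these genes. EFNA3, a membrane-anchored ephrin gene, was at 100% in both siANP32B libraries, against 100% and 50% in the siControl libraries. In every library the domain at EFNA3 also reached the neighbouring EFNA1, of whose gene body 12.5% to 25% was in domains, while EFNA4 beside them had none.

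Of the receptor genes, EPHA8, EPHA10, EPHB3 and ROBO3 were covered in all 4 libraries. EPHB3 and ROBO3, which encode a receptor tyrosine kinase and a Robo of commissural axons, were at 100% in each library. EPHA8 was at 73.2% and 100% in siANP32B and at 75.6% and 80.5% in siControl libraries, with overlapping groups. ROBO4, a Robo of blood vessel endothelium next to ROBO3, shared the ROBO3 domain in all 4 libraries. ROBO4 was at 100% in both siANP32B libraries, against 20% and 100% in the siControl libraries. No plexin was covered in any library, and 4 of the 9 plexins, PLXNA1, PLXNA3, PLXNB1 and PLXNB3, had no domain at all. EPHA4, EPHA5, EPHA6, EPHA7, EPHB1 and EPHB4 also had none, although EPHA6 spans 946.9 kb. Of the ligand genes, SLIT2, EFNA4, EFNB1, EFNB2, NTN3, SEMA3B, SEMA3E, SEMA4G and SEMA5A had none. In 9 further genes (EPHA3, NTN4, PLXNA4, PLXNB2, PLXND1, SEMA3D, SEMA4B, SEMA6B and SEMA7A) domains took up at most 30.4% of the gene body in any library, and the groups overlapped.

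At several genes a single library stood apart. EPHA1, EPHA2, EPHB6, SEMA3G, SEMA4C and SEMA6C were covered in siANP32B replicate 1 alone, at 56.2% to 100%, and in siANP32B replicate 2 they were at 0% to 3.03%. EFNA2 was covered in siANP32B replicate 2 alone (61.1%). SEMA3C (51.4%) and SEMA3F (77.1%) were covered in siControl replicate 1 alone. EFNB3, an ephrin gene of 6.17 kb, was at 100% and 71.4% in siANP32B and at 71.4% and 0% in siControl libraries. At none of these genes were the groups apart.

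Promoters followed the gene bodies only in part. RefSeq windows from 250 bases before to 50 bases after a transcript start were available for 55 of the 62 genes (87 windows, GRCh38.p14), and a window counted as in a domain when at least 50% of it was. A promoter window lay in a domain in both siANP32B libraries for 17 of the 55 genes and in both siControl libraries for 13, or 30.9% and 23.6%, against 22.9% and 18.5% of 15843 protein-coding genes with windows. Above the common score these counts were 2 and 7, and without siControl replicate 2 the siControl count was 21. With an equal number of best-scored domains per library they were 17 and 11. For 10 genes a window was in domains of all 4 libraries. Exactly 1 window, that of PLXNC1, was in domains of both siANP32B libraries and of no siControl library, and 1 window, of ROBO2, was the reverse. Each is 1.15% of the 87 windows, against 2.65% and 0.960% of all windows of protein-coding genes, so neither count stands above the background by more than a single window. No window of a guidance gene lay in a region that passed in the authors' deposited table.

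The sequences of those windows are shown with the windows of SLIT1 and EPHB2, which were in domains of all 4 libraries and were chosen after their values were seen. They run 5′ to 3′, with each CG dinucleotide in capitals; CG reads the same on both strands.
PLXNC1 (chr12:94148327-94148626, plus strand): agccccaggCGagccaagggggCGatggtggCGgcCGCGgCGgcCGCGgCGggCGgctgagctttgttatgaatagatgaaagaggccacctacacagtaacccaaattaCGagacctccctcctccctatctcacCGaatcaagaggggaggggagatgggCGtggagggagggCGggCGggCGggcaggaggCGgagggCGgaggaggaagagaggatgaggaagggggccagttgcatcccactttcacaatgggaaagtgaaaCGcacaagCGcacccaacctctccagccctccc
ROBO2 (chr3:77039849-77040148, plus strand): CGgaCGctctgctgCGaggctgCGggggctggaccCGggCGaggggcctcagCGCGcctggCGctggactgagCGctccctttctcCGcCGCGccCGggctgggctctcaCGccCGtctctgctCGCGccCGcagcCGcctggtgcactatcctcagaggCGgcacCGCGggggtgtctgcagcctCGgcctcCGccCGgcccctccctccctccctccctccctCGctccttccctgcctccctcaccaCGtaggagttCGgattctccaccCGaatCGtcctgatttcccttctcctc
SLIT1 (chr10:97185910-97186209, minus strand): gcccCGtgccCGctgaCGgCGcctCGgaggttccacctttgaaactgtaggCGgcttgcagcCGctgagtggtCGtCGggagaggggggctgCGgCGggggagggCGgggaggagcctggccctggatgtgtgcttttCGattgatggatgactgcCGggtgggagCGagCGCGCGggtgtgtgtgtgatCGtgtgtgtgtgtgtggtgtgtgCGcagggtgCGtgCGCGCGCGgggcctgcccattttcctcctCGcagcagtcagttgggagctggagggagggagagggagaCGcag
EPHB2 (chr1:22710588-22710887, plus strand): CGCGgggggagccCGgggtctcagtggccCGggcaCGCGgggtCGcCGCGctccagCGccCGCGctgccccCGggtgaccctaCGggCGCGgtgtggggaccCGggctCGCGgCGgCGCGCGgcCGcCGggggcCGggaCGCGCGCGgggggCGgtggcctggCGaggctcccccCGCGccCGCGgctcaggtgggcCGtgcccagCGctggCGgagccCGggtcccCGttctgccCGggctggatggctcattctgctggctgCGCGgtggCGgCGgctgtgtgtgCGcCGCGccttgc
The PLXNC1 window holds 20 CG dinucleotides, the ROBO2 window 31, the SLIT1 window 27 and the EPHB2 window 49. At least 1 CG is in 98.0% of all promoter windows of protein-coding genes, with a median of 21. Guidance gene windows in domains of all 4 libraries had a median of 23.5 CG and those in no domain 22, while over all protein-coding genes the medians were 15 and 21. Several of these windows overlap or belong to 1 gene, so they are not independent, and the comparison was not tested.

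Coverage was higher in both siANP32B libraries than in both siControl libraries at 8 of the 62 genes: the ligand genes NTN1, SLIT3, SEMA4D, SEMA5B and SEMA6A and the receptor genes EPHB2, PLXNA2 and PLXNC1. That is 12.9%, against 8.91% of all protein-coding genes, which also lean this way. All 8 are longer than 100 kb. Among genes of 50 to 200 kb the share was 30.8% of 13 guidance genes against 13.0% of all, among longer genes 22.2% against 16.1%, and among genes under 50 kb 0 of 31 against 6.74%. With a library left out the groups part more easily, and the count was then 12 without siANP32B replicate 1, 19 without siANP32B replicate 2, 13 without siControl replicate 1 and 9 without siControl replicate 2.

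EPHB2, an Eph receptor gene on chromosome 1 (22710838 to 22921500), was at 93.9% and 97.2% in siANP32B and at 58.0% and 48.6% in siControl libraries. The means were 95.5% ± 2.33 and 53.3% ± 6.67 (SD, n = 2 each), a difference of 42.2 percentage points. The promoter and the first 47.2 kb were in domains of all 4 libraries, as were 2 stretches farther in. The sequence shared by the siANP32B libraries and absent from both siControl lists came to 70 kb, the longest piece being 36 kb at chr1:22869001-22905000, 158.2 kb beyond the gene start. In siANP32B replicate 2 a domain of 371 kb, and in siControl replicate 2 a domain of 155 kb, also reached the neighbouring EPHA8, so these receptor genes are not independent there.

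NTN1, which encodes the founding netrin and lies on chromosome 17 (9003087 to 9244000), was at 88.4% and 99.2% in siANP32B and at 49.0% and 63.5% in siControl libraries. The means were 93.8% ± 7.63 and 56.2% ± 10.3 (SD, n = 2 each). A core of 69 kb and shorter stretches were in domains of all 4 libraries, and 61 kb around them was in both siANP32B and neither siControl library, including 35 kb at chr17:9071001-9106000. In siANP32B replicate 2 a single domain of 257 kb took up the gene, where siControl replicate 2 had 4 separate domains.

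SLIT3 on chromosome 5 (168661740 to 169301139) was at 37.0% and 23.4% in siANP32B and at 8.42% and 8.74% in siControl libraries. The means were 30.2% ± 9.60 and 8.58% ± 0.221 (SD, n = 2 each). The added sequence was scattered over the 639.4 kb gene: 41 kb in both siANP32B and neither siControl library, in pieces of 7 to 12 kb. Its promoter window was in no domain in any library.

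SEMA5B, a transmembrane semaphorin gene, was at 83.3% and 75.8% in siANP32B and at 56.7% and 57.5% in siControl libraries. SEMA4D, whose product acts on plexin B receptors, was at 38.8% and 25.2% in siANP32B libraries and at 0 in both siControl libraries. Its domains of 54 and 35 kb share 35 kb at chr9:89364001-89399000, toward the 3′ end of the gene. PLXNA2, a receptor for class 3 and class 6 semaphorins, was at 30.0% and 28.3% in siANP32B and at 16.1% and 8.07% in siControl libraries. SEMA6A, a ligand of plexin A receptors, was at 16.7% and 28.0%, against 13.6% and 8.33%. PLXNC1, the receptor of SEMA7A, was touched at its start alone, at 1.25% and 6.88% in siANP32B and 0 in both siControl libraries.

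**Figure D2:**
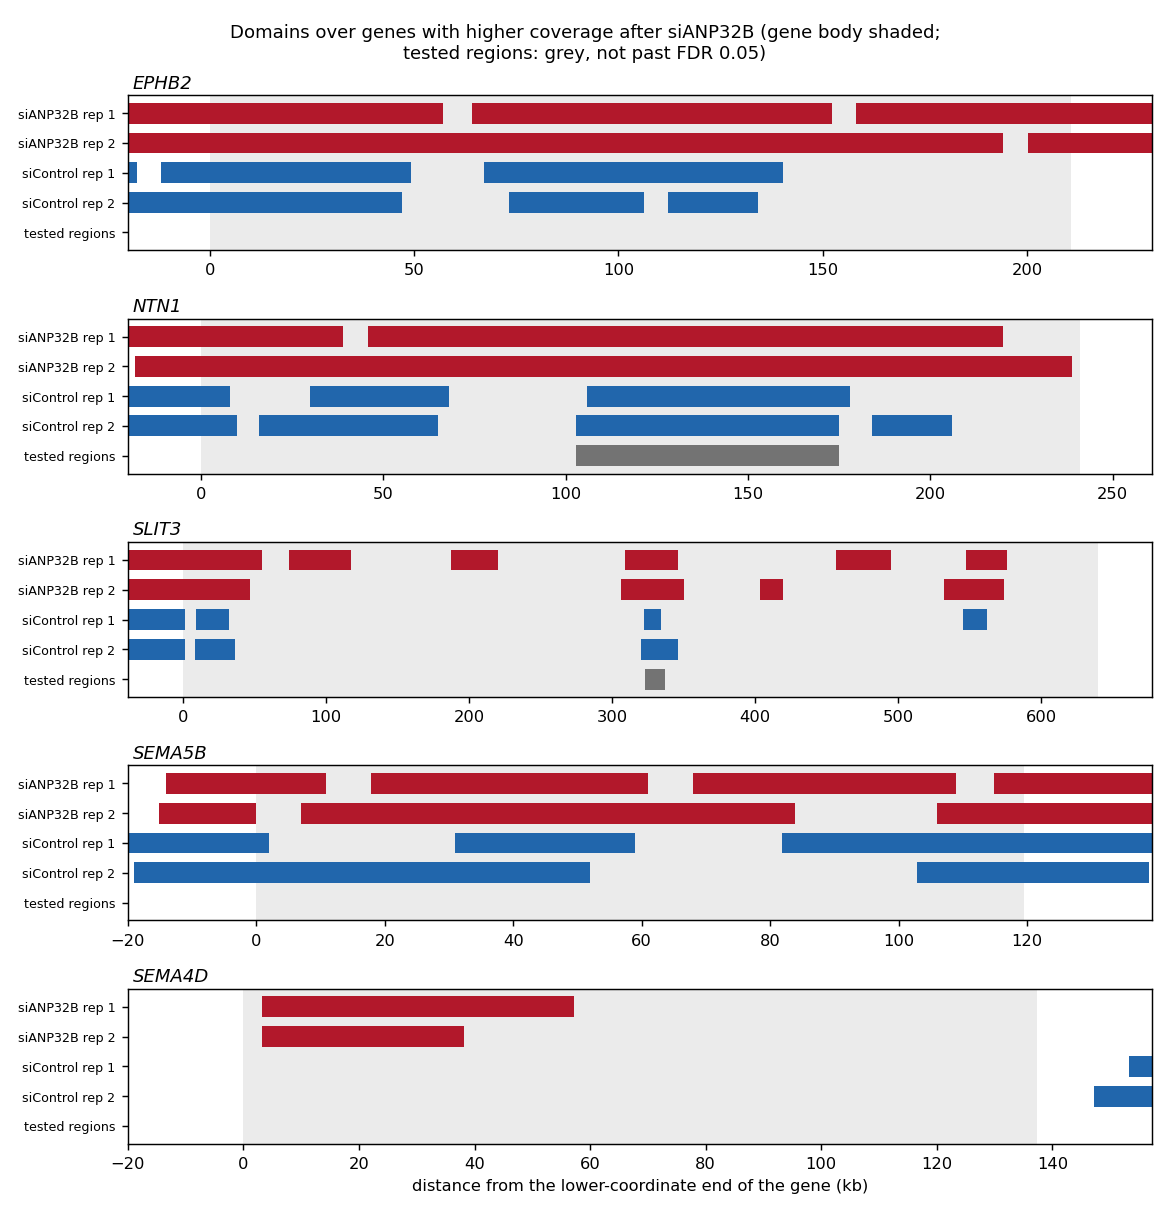
Domains in each library (bars, siANP32B red and above siControl blue) over EPHB2, NTN1, SLIT3, SEMA5B and SEMA4D, with distance in kb from the lower-coordinate end of the gene on the x axis and the gene body shaded. At EPHB2 and NTN1 the siANP32B bars close gaps between siControl bars, and at SEMA4D only siANP32B bars lie in the gene; the tested regions of NTN1 and SLIT3 (grey) did not pass.

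The size of these differences, and the sign of their sum over all 62 genes, depend on how domains are filtered. When only domains above the common score were kept, the share of the guidance genes' summed length in domains differed by -1.91 percentage points (siANP32B minus siControl), against 2.25 points with all domains. With an equal number of best-scored domains per library, it differed by 2.76 points. The common score was 81.07. Scores of 80.82 and 80.66 were at percentiles 62.2 and 63.6 of the siANP32B lists. Scores of 79.95 and 80.01 were at percentiles 41.3 and 32.3 of the siControl lists. The common score thus removed a larger part of the siANP32B lists. Under that score NTN1, SEMA5B, SEMA6A and SLIT3 still had both siANP32B libraries above both siControl libraries, while the groups overlapped at EPHB2 and PLXNA2 and no domain remained at SEMA4D and PLXNC1.

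Coverage was lower in both siANP32B libraries than in both siControl libraries at 4 of the 62 genes, EPHA10, ROBO1, ROBO2 and SEMA6D (6.45%, against 2.88% of all protein-coding genes). Among genes over 200 kb the share was 16.7% of 18 guidance genes against 6.93% of all. It was 7.69% of 13 against 3.70% at 50 to 200 kb, and 0 of 31 against 2.19% under 50 kb. At ROBO1, ROBO2 and SEMA6D the group means differed by only -2.39, -5.30 and -1.18 points. EPHA10, an Eph receptor gene whose kinase domain is held to be inactive, was at 64.2% and 94.3% in siANP32B and at 98.1% and 100% in siControl libraries, with means of 79.2% ± 21.3 and 99.1% ± 1.33 (SD, n = 2 each). The gap rests mostly on siANP32B replicate 1, whose domain left out the lower-coordinate end of the gene. The count of 4 was 7 without siANP32B replicate 1, 9 without siANP32B replicate 2 and 14 without siControl replicate 2, again with no share over all protein-coding genes computed. Above the common score these 4 genes were also lower, among 8 in all, and the share over all protein-coding genes was not computed there. EPHA10 was then at 0 in siANP32B replicate 2, whose domain scored 80.66, just under the common score of 81.07.

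ROBO2, a Slit receptor gene of 1743 kb on chromosome 3 (75906675 to 77649964), was at 6.25% and 9.98% in siANP32B and at 13.9% and 12.9% in siControl libraries. The gene held 81 of the 143 kb of guidance gene sequence found in both siControl and neither siANP32B library. Those 81 kb include 2 stretches of 22 kb, chr3:76655001-76677000 and chr3:76711001-76733000, deep in the gene, and 7 kb at chr3:77037001-77044000 that hold the internal promoter window printed above. Of 3 kb at chr3:76952001-76955000 the reverse was true. ROBO1, its neighbour and paralog, was at 4.78% and 2.48% in siANP32B and at 5.29% and 6.75% in siControl libraries. SEMA6D, a transmembrane semaphorin gene, was at 2.20% and 3.05% in siANP32B and at 3.72% and 3.89% in siControl libraries.

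At SEMA3A, SEMA3C and EFNA5 the groups overlapped, but stretches in both siControl and neither siANP32B library were present. SEMA3A, the founding class 3 repellent, was at 16.2% and 26.0% in siANP32B and at 36.8% and 24.3% in siControl libraries, with such a stretch of 29 kb at chr7:84135001-84164000. EFNA5 had one of 18 kb at its 3′ end (chr5:107376001-107394000). Over all 62 genes, 254 kb was in both siANP32B and neither siControl library and 143 kb the reverse, or 2.12% and 1.19% of the summed gene-body length, against 1.62% and 0.503% over all protein-coding genes.

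The families did not move together. Netrin gene bodies were in domains by 57.8% and 65.4% of their summed length in siANP32B and by 35.4% and 43.0% in siControl libraries, nearly all of it at NTN1. Slit gene bodies were at 34.7% and 27.7%, against 20.1% and 19.5%, where SLIT3 made the difference. Eph receptor gene bodies were at 11.5% and 12.2%, against 8.03% and 7.27%, which is mainly EPHB2. Plexins were at 7.99% and 6.64%, against 5.83% and 1.62%, mainly through PLXNA2. Robo gene bodies lay the other way, at 6.68% and 7.97% in siANP32B and at 11.0% and 11.4% in siControl libraries, of which ROBO2 is the larger part. Semaphorins (16.2% and 14.5%, against 17.6% and 12.7%) and ephrins (4.68% and 11.3%, against 14.04% and 6.40%) overlapped between the groups.

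**Figure D3:**
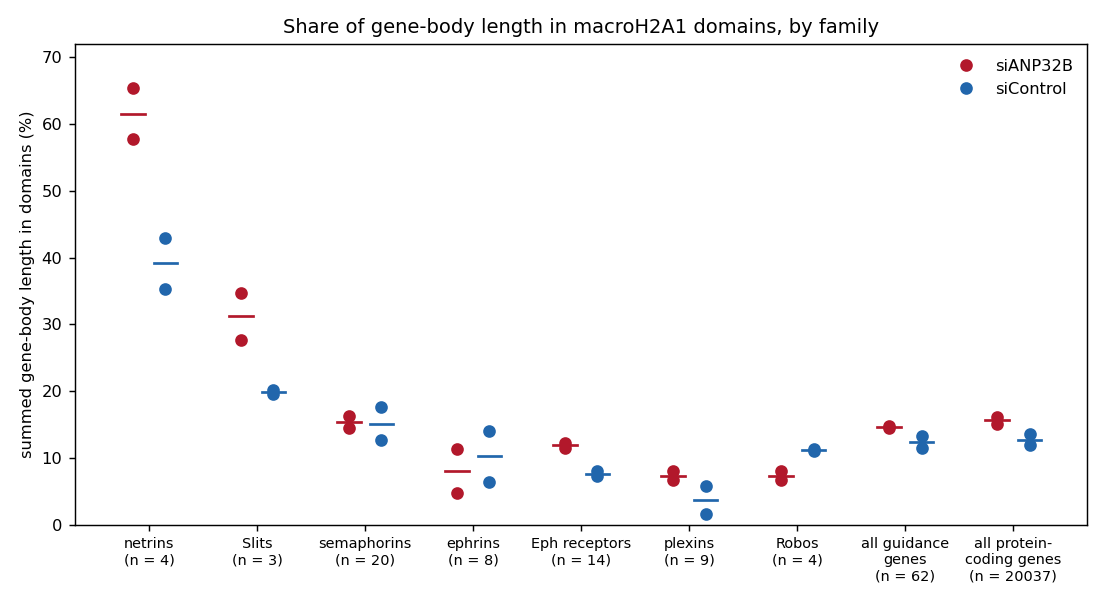
Percent of the summed gene-body length in macroH2A1 domains for each family, for all 62 guidance genes and for all protein-coding genes; each point is a library, siANP32B (red) left of siControl (blue), and the lines are group means. Netrins, Slits, Eph receptors and plexins have both siANP32B points above both siControl points, Robos have them below, and semaphorins and ephrins overlap.

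Over all 62 genes the shares were 14.8% and 14.5% in siANP32B and 13.3% and 11.5% in siControl libraries, a mean of 14.6% ± 0.23 against 12.4% ± 1.27 (SD, n = 2 each). All protein-coding genes together gave 15.6% ± 0.779 and 12.7% ± 1.22 (SD, n = 2 each).

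In the tested regions macroH2A1 fell at 7 guidance genes and rose at 1, with folds read as siANP32B over siControl. That direction was inferred from the domain lists, since the authors' deposited table does not name the group on top; turned round, the counts would be 1 lower and 7 higher. The 13 tested regions of the authors' deposited table that overlap these genes lie in 11 of the 62 (17.7%, against 9.25% of all protein-coding genes), and at a false discovery rate (FDR) of 0.05 there were 7 lower regions and 1 higher region. Within length classes the share of genes with a tested region was 6.45% against 6.81% of all genes under 50 kb. It was 38.5% of 13 guidance genes against 12.5% at 50 to 200 kb, and 22.2% against 21.9% over 200 kb. By gene, 7 of these 11 overlapped a lower region and 1 a higher one, against 60.7% and 5.83% of the 1853 protein-coding genes with a tested region in the authors' deposited table, so both counts are near the background. Of all its regions, the authors' deposited table has 58.4% lower and 3.82% higher. Read as siANP32B over siControl, the log2 folds of the authors' deposited table had a median of -0.60 over the 13 regions and of -0.54 over all 4474. The sources used here do not give how libraries were scaled, and a change of scale would move all folds together.

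**Figure D4:**
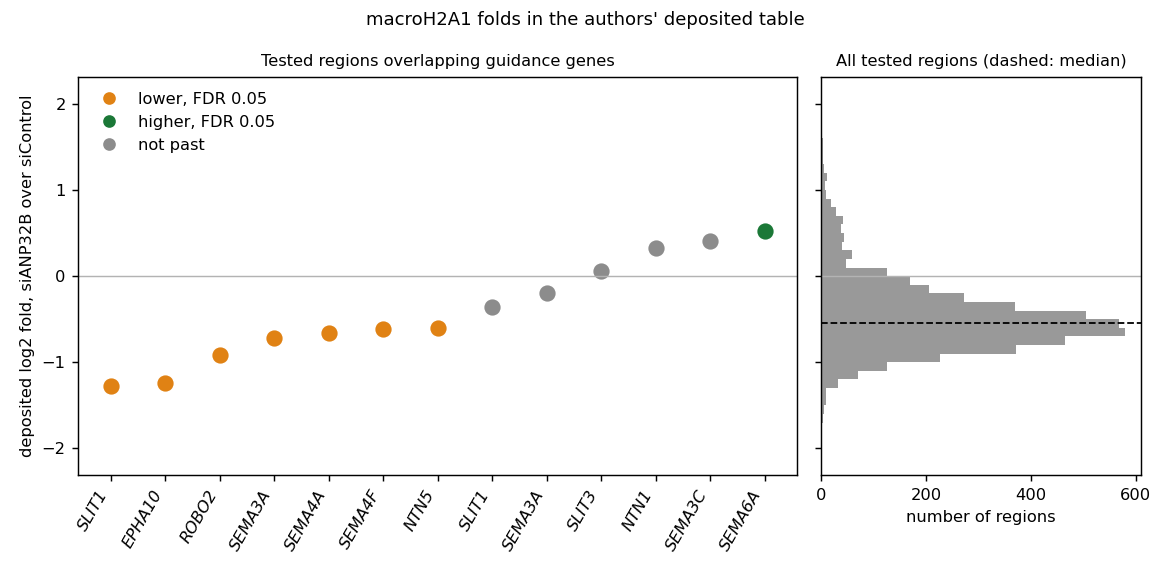
Deposited log2 folds (siANP32B over siControl) of the 13 tested regions that overlap guidance genes, from the authors' deposited table (left), and the number of all its regions by fold (right, median dashed). SLIT1 and EPHA10 have the lowest folds, -1.28 and -1.24, and SEMA6A the highest, 0.53; none of these points has a replicate error.

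SLIT1 and EPHA10 had the lowest folds. In SLIT1 a region of 37 kb (chr10:97135001-97172000), which begins 13.96 kb downstream of the gene start, had a log2 fold of -1.28 (FDR 1.73e-09) in the authors' deposited table. All 27 of its windows were down in the authors' deposited table, yet the region was fully in domains in all 4 libraries. A second SLIT1 region of 14 kb near the 3′ end (chr10:97021001-97035000) did not pass, with -0.36 (FDR 0.158) in the authors' deposited table. In EPHA10 a region of 21 kb inside the gene (chr1:37730001-37751000) had -1.24 (FDR 2.71e-09) with all 12 windows down in the authors' deposited table. Only 0.805% and 1.12% of all regions of the authors' deposited table had lower folds than these.

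ROBO2 carried a lower region of 10 kb (chr3:77290001-77300000), about 1383 kb from the gene start, with a log2 fold of -0.92 (FDR 2.47e-05) from a single window in the authors' deposited table. Of this ROBO2 region, 90% was in domains in both siANP32B libraries and 100% in both siControl libraries. In SEMA3A the region chr7:84081001-84099000 had -0.72 (FDR 0.00433) and the region chr7:84023001-84048000 had -0.20 (FDR 0.689) in the authors' deposited table. Both SEMA3A regions were fully in domains in the siANP32B libraries.

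**Figure D5:**
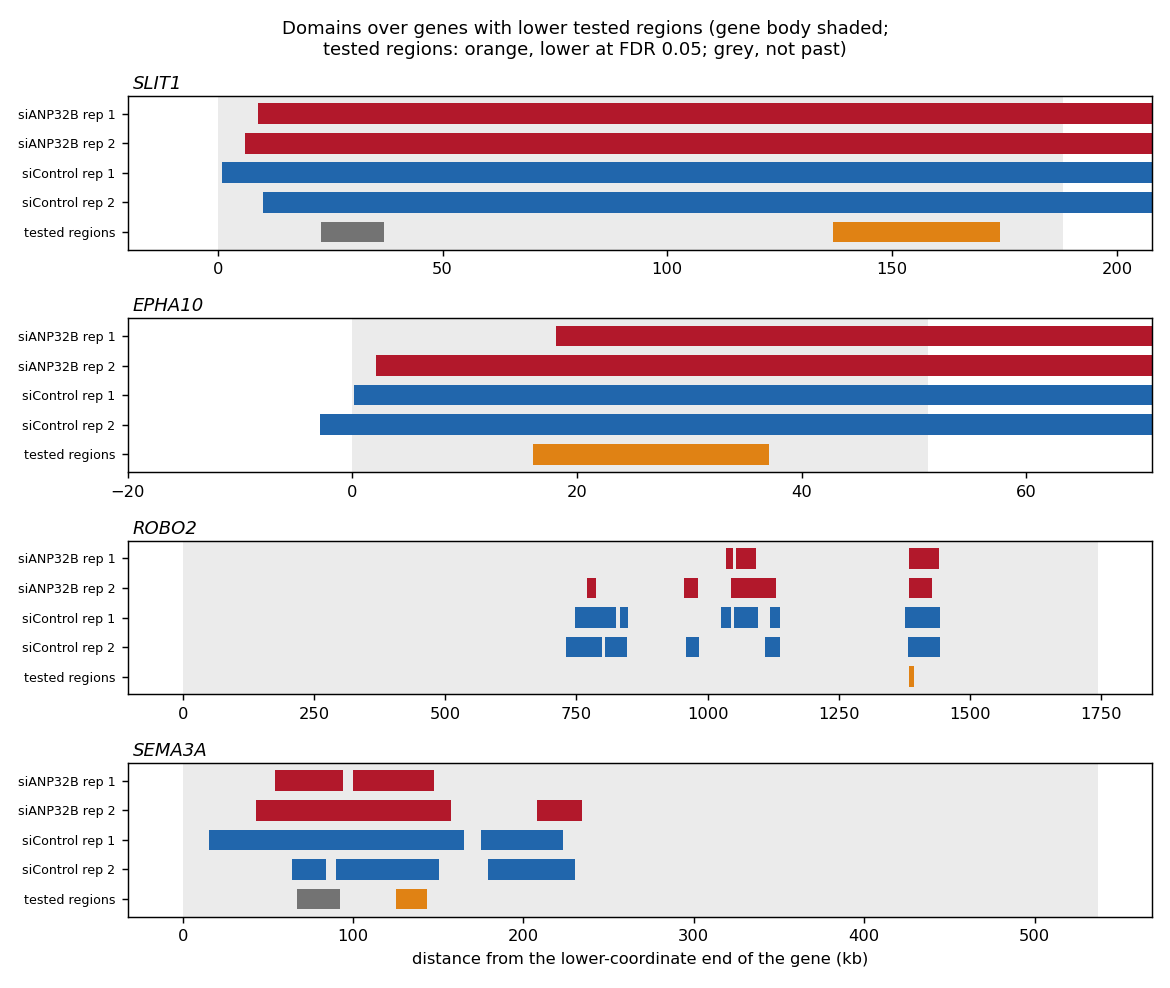
Domains in each library (bars, siANP32B red and above siControl blue) and tested regions of the authors' deposited table (orange, lower; grey, not past the threshold) over SLIT1, EPHA10, ROBO2 and SEMA3A, with distance in kb from the lower-coordinate end of the gene on the x axis and the gene body shaded. The orange regions of SLIT1 and SEMA3A lie inside bars of all 4 libraries, while ROBO2 has siControl bars between 748 and 847 kb that are mostly missing from siANP32B.

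SEMA4A, SEMA4F and NTN5 had smaller falls close to the median of all regions. Their log2 folds were -0.66 (FDR 0.00355), -0.62 (FDR 0.00237) and -0.60 (FDR 0.0175) in the authors' deposited table. The SEMA4F and NTN5 regions lie partly outside the gene, with 10.4 of 19 kb and 5.59 of 18 kb inside it. Of the 10 genes covered in both siControl libraries, 5 had a tested region: SLIT1, EPHA10, SEMA4A, SEMA4F and NTN5. Each of these 5 had a lower region in the authors' deposited table, against 60.7% of all protein-coding genes with a tested region, whatever their coverage. The share among all genes covered in both siControl libraries was not computed, so the 5 have no matched background. The other 5, EPHA8, EPHB3, EFNA3, ROBO3 and SEMA5B, overlapped no tested region. NTN1, covered in both siANP32B but not in both siControl libraries, had a tested region that did not pass.

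SEMA6A had the one higher region, of 14 kb (chr5:116521001-116535000), with a log2 fold of 0.53 (FDR 0.0380) in the authors' deposited table. Of its 5 windows 1 was up, and it did not pass at an FDR of 0.01 in the authors' deposited table. NTN1, SLIT3 and SEMA3C had folds above 0 that did not pass, 0.32 (FDR 0.502), 0.06 (FDR 0.779) and 0.41 (FDR 0.357) in the authors' deposited table. The NTN1 region (chr17:9106001-9178000) holds the core that all 4 libraries shared. None of the 22 stretches found in both siANP32B and neither siControl library met a region of the authors' deposited table, so the added coverage at EPHB2, NTN1, SLIT3 and SEMA4D has no fold beside it.

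Among other genes of the pathway, lower regions again outnumbered higher ones, as in the whole of the authors' deposited table (58.4% lower and 3.82% higher). Of 41 further axon guidance genes (other receptors, ligands and signal transducers), 9 were covered in both siANP32B and 6 in both siControl libraries (22.0% and 14.6%, against 17.3% and 13.8% of all protein-coding genes). Coverage was higher in both siANP32B libraries than in both siControl libraries at 5 of the 41 and lower at 0 (12.2% and 0%, against 8.91% and 2.88%). Tested regions of the authors' deposited table overlap 9 of the 41 (22.0%, against 9.25%). These 41 genes are long, with a median of 124.3 kb against 24.1 kb of all, and long genes overlap tested regions more often. Of these 9, 7 overlap a lower and 1 a higher region of the authors' deposited table (77.8% and 11.1%, against 60.7% and 5.83%). NRCAM, a cell adhesion molecule of axons, had a log2 fold of -1.23 (FDR 3.11e-09) in the authors' deposited table. UNC5B, a netrin receptor of endothelial and nerve cells, rose by 0.99 (FDR 3.74e-06) in the authors' deposited table and was at 100% in both siANP32B and at 100% and 90.1% in siControl libraries. DPYSL4, a collapsin response mediator gene, had -0.68 (FDR 0.00103), ABLIM3 -0.51 (FDR 0.0167) and UNC5C -0.63 (FDR 0.0290) in the authors' deposited table. The regions at UNC5B, DPYSL4 and ABLIM3 lie partly outside the gene. That at ABLIM3 (chr5:149260001-149273000) meets only the higher-coordinate end of the gene body, which stops at 149260542.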

How the data were processed

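CUT&RUN libraries came from HepG2 cells; 4 anti-macroH2A1 libraries were used and the 4 IgG libraries were not analysed here. The tools named, per the submitters' processing notes, are edgeR, SICER, deepTools, SAMtools, Bowtie2 and Trim Galore, with build hg38. Versions, settings and library scaling were not stated there. The deposited files give domains called per library on a 1 kb grid, each with the caller's score, which served only to rank or filter domains. Per the file headers, the authors' deposited table gives for each region a p-value, an FDR and the fold of a representative window, read as log2 after the convention of edgeR; its values are not counts, and 0 of its columns hold values per sample. The deposited FDR equals a Benjamini-Hochberg adjustment over all 4474 regions. Which group is on top of the fold is not stated: positive folds were read as higher in siANP32B because 96.5% and 97.1% of such regions were in domains in siANP32B libraries, against 90.1% and 84.9% in siControl libraries, while for negative folds the shares were 91.4% and 92.7% against 95.5% and 93.5%, a small gap in replicate 2.

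Coverage, promoter windows and overlaps (at least 1 base with a gene body) were computed in Python 3.11.15 with numpy 2.4.6, pandas 2.3.3 and scipy 1.17.1, over GRCh38.p14 RefSeq genes; all 62 members matched by symbol. The coverage code was tested on simulated data. Depth is unknown, so no interval is given. The members and lists were chosen with earlier results of these data known. Genes were named when covered in both libraries of a group, when overlapping a tested region, or when among the 10 with the largest difference between groups that do not overlap; other genes were named after their values were seen. Alternatives covered thresholds, flanks of 10 kb, scores, chromosomes, single libraries and the replicate block.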

Additional observations from a re-analysis of the deposited data

How the results depend on the processing

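Of 53 recalculations that did not leave out a library, 41 gave a count within 1.5 times, a length share difference within the replicate spread, or a median region fold within 0.10 (log2), of the reported one. Those 41 include the length share difference under the replicate block, which could not change. Keeping only domains above a common score moved the most: genes covered in both siANP32B libraries numbered 2 and in both siControl libraries 6, genes with a promoter in domains 2 and 7, genes higher and lower in coverage 4 and 8, and the length share difference was -1.91 points. With an equal number of best-scored domains per library the same counts were 14 and 9, 17 and 11, and 9 and 3. The length share difference was then 2.76 points. Shares over all protein-coding genes were not computed for these alternatives. Gene bodies with 10 kb flanks gave 7 genes lower in coverage, and requiring group means 10 points apart gave 1. The median region fold was -0.49 with at least 50% of the region in the gene and -0.43 with flanks, and at an FDR of 0.01 there were 0 members with a higher region. The cause of these shifts was not tested. With the numbers as a replicate block, 10 genes were higher and 6 lower in both same-numbered pairs. These counts could not fall below 8 and 4, since groups that do not overlap also differ in each pair. The length share difference of 2.25 points was fixed in advance there, because pairing leaves the group means unchanged. Same-numbered libraries hardly deviated together (correlation 0.0852 across protein-coding genes, which are not independent), so the numbers are not shown to pair the libraries.

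Groups that hold 1 library separate more easily. With 1 library left out, genes higher in coverage ranged from 9 to 19 and genes lower from 4 to 14. The length share difference ranged from 1.35 to 3.15 points, genes covered in siANP32B from 15 to 20 and in siControl from 12 to 14, and genes with a promoter in domains from 18 to 24 and from 14 to 21. Shares over all protein-coding genes were not computed with a library left out. Depth is unknown, so a gene without a domain may hold macroH2A1 below detection.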
